A study of Danio rerio with 4 samples.

Results

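The Nr4a, Crem, Csrnp1 and Sik1 genes were read in the regenerating tail fin of zebrafish (*Danio rerio*), in *longfin* heterozygotes and their wildtype clutchmates. They are 9 counted genes of 31901, taken by name or Ensembl ID: 4 Nr4a receptor genes, 2 Crem genes, 2 Csrnp1 genes and *sik1*. The set was put together with the fold changes between these genotypes already known, so its levels and fold changes are given as a description and no test is read from them. Of the 9, 8 passed the filter on low counts and 1 had no reads.

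All libraries came from adult fish 96 hours after amputation of the caudal fin, carrying an sp7:eGFP transgene in which the promoter of the osteoblast gene *sp7* drives a green fluorescent protein. The *longfin* fish were heterozygous for a dominant allele that makes fins overgrow, and the clutchmates carried none. The tissue was the tip without GFP, cut from the regenerate beyond the labelled osteoblasts, and each of the 2 libraries per genotype pooled the tips of 4 fins. Reads in genes numbered 19428186 to 23157979 per library. Whether the pools of a genotype were taken from separate clutches or on separate days is not stated, so a p-value here reflects the spread between these samples and no more.

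Nr4a proteins are orphan nuclear receptors that act as transcription factors without a known physiological ligand, and in mammalian cells their genes are switched on within minutes of a stimulus. Crem proteins belong to the CREB family, bind cAMP response elements and include activators as well as an inducible repressor made from an internal promoter. Csrnp1 is a nuclear protein first described in mammals as a gene induced by axin, and Sik1 is a kinase that is induced through CREB and restrains the CREB coactivators of the Crtc family. In mammals all of these genes are known as early targets of cAMP, calcium or growth factor signals.

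The tissue labels were set against marker genes. Basal epidermal *krt5* (9094 and 10021 CPM in longfin tips, 9217 and 11854 CPM in wildtype tips) and the actinotrichia gene *and1* (11487 and 10260 CPM in longfin tips, 8859 and 8332 CPM in wildtype tips) were abundant. CPM is the read count scaled to a common library size, after TMM scaling. The osteoblast gene SP7 stood at 45.9 and 57.4 CPM in longfin tips and 45.4 and 56.1 CPM in wildtype tips. Its RNA was thus present in tissue taken as GFP-negative. The late osteoblast gene *bglap* had no reads, but other osteoblast markers did. COL10A1 (ENSDARG00000054753) had 1875 and 2199 CPM in longfin and 2021 and 2693 CPM in wildtype tips. ALPL had 73.5 and 70.1 CPM in longfin and 78.4 and 72.3 CPM in wildtype tips. The gene *kcnh2a*, which the study's title places at the *longfin* locus, shares the symbol KCNH2 with a second counted gene. One of the pair, ENSDARG00000029881, had 7 and 21 reads in longfin and 0 and 1 reads in wildtype libraries, and ENSDARG00000106473 had 1 and 3 reads in longfin and 4 and 1 in wildtype libraries.

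Among the Nr4a receptors, NR4A3 was lower in longfin than in wildtype tips, at 0.228 times the wildtype mean, whereas NR4A1 was near the same level in both. NR4A3 (ENSDARG00000055854, Nor1) had 6.30 and 5.30 CPM in longfin libraries, against 25.7 and 25.0 CPM in wildtype libraries. Both longfin libraries lay below both wildtype libraries, and the lower wildtype value was 3.97 times the higher longfin value. The log2 fold change, longfin over wildtype, was -2.12 ± 0.14 (SE). Counting error alone placed the longfin libraries at 5.30 to 7.44 and 4.32 to 6.42 CPM and the wildtype libraries at 23.5 to 28.1 and 23.1 to 27.1 CPM (95% Poisson intervals).

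NR4A1 (ENSDARG00000000796, Nur77), the founding member of the family, had 90.9 and 94.3 CPM in longfin libraries and 91.5 and 81.1 CPM in wildtype libraries. The genotypes overlapped, and the log2 fold change was 0.10 ± 0.10 (SE). The symbol NR4A2 (Nurr1, known in mammals for its part in dopamine neurons) is carried by a pair of IDs, which the gene-name table does not tell apart as *nr4a2a* and *nr4a2b*. ENSDARG00000044532 was low, with 1.98 and 1.54 CPM in longfin and 3.51 and 1.71 CPM in wildtype libraries. The genotypes overlapped, with wildtype replicate 1 above the other 3 libraries. The log2 fold change was -0.51 ± 0.41 (SE), and it was 0.05 without wildtype replicate 1. ENSDARG00000017007 had 0 reads in all 4 libraries, which allows up to 0.135 and 0.154 CPM in longfin and 0.162 and 0.125 CPM in wildtype libraries (3 counts per library). The bound covers only reads that align uniquely, as the others were left out of the counts.

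Within the family, the make-up of the receptor reads differed, a comparison that no scaling of the libraries can alter. NR4A3 gave 6.35% and 5.23% of the Nr4a reads in longfin libraries (95% Wilson intervals 5.41 to 7.45% and 4.33 to 6.31%), against 21.3% and 23.2% in wildtype libraries (19.7 to 23.1% and 21.6 to 24.9%). NR4A1 gave 91.6% and 93.2% in longfin and 75.8% and 75.2% in wildtype libraries. The reads numbered 2203 and 1968 in longfin and 2233 and 2583 in wildtype libraries. Intervals of this kind cover counting error only. These shares, like those of the other families below, are made from the same counts as the fold changes, so they are no independent evidence.

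**Figure D1:**
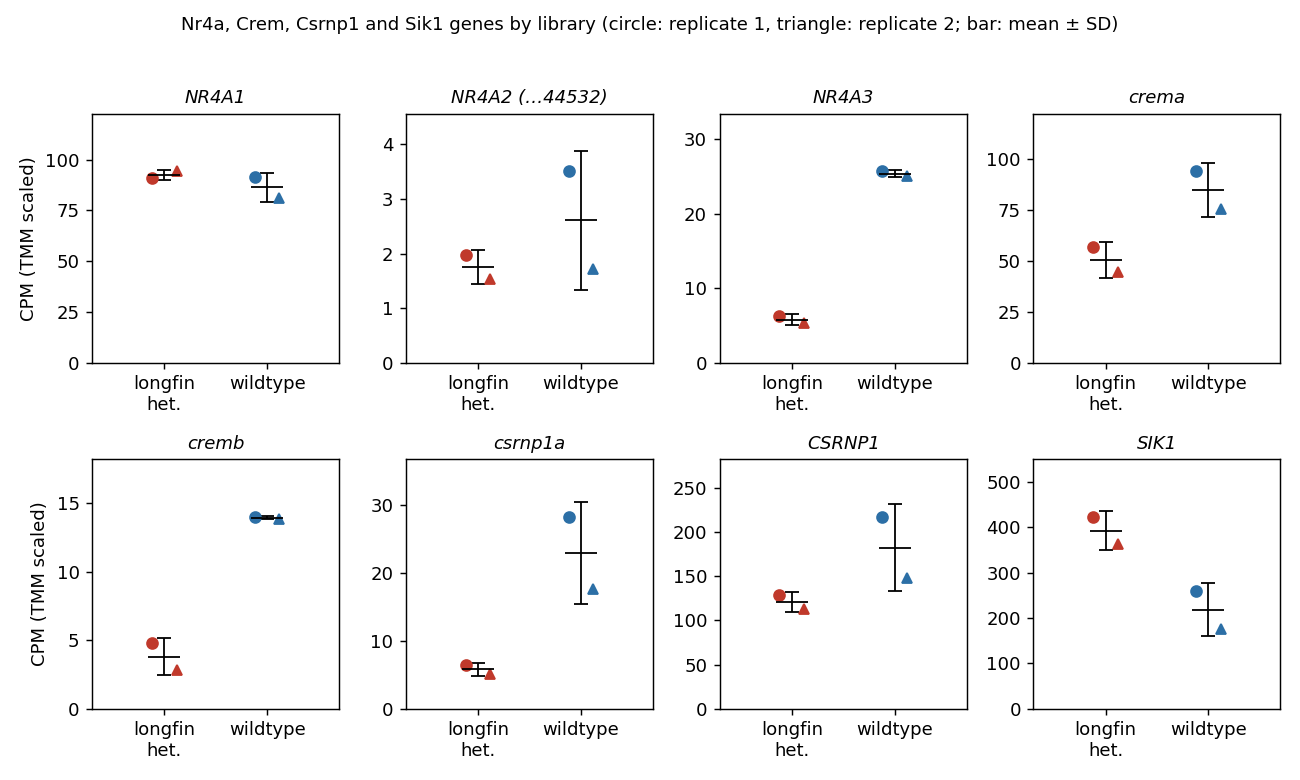
Level of each of the 8 genes with reads (CPM, linear axes from 0) in longfin heterozygous and wildtype tips; circles are replicate 1, triangles replicate 2, and bars the mean ± SD of 2 libraries. NR4A3 lies at 6.30 and 5.30 CPM in longfin and at 25.7 and 25.0 CPM in wildtype libraries, and SIK1 has its longfin libraries above its wildtype ones.

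Both Crem genes were lower in longfin tips, *cremb* by the wider margin. The *cremb* gene (ENSDARG00000102899) had 4.77 and 2.83 CPM in longfin libraries, against 14.0 and 13.9 CPM in wildtype libraries. The genotypes did not overlap, and the log2 fold change was -1.86 ± 0.24 (SE). The longfin values rest on 106 and 55 reads and those of wildtype on 259 and 332. The *crema* gene (ENSDARG00000023217) had 56.8 and 44.5 CPM in longfin and 94.3 and 75.5 CPM in wildtype libraries. Its libraries did not overlap by genotype either, but the lowest wildtype value was only 1.33 times the highest longfin value, and the log2 fold change was -0.74 ± 0.16 (SE). Of the reads of both genes, *cremb* gave 7.74% and 5.98% in longfin libraries (95% Wilson intervals 6.44 to 9.28% and 4.62 to 7.70%) and 12.9% and 15.5% in wildtype libraries (11.5 to 14.5% and 14.0 to 17.1%). Counts per gene do not separate the activator and repressor transcripts of these genes.

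The Csrnp1 pair followed the same order. The *csrnp1a* gene (ENSDARG00000031426) had 6.48 and 5.04 CPM in longfin libraries, against 28.2 and 17.6 CPM in wildtype libraries, a log2 fold change of -1.98 ± 0.27 (SE). Its genotypes were apart, while the wildtype libraries differed from each other 1.60-fold. CSRNP1 (ENSDARG00000038429), the only other counted gene with that name, had 128 and 112 CPM in longfin and 218 and 148 CPM in wildtype libraries. The longfin libraries were lower, by a log2 fold change of -0.60 ± 0.19 (SE), which was -0.29 without wildtype replicate 1 and -0.85 without wildtype replicate 2. The share of *csrnp1a* in the reads of the pair was 4.80% and 4.29% in longfin libraries (95% Wilson intervals 4.09 to 5.63% and 3.53 to 5.199%) and 11.5% and 10.6% in wildtype libraries (10.6 to 12.4% and 9.72 to 11.6%), from 2285 to 4546 reads per library.

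The *csrnp1a* gene lies on chromosome 2 beside the locus. In the gene order of the RefSeq annotation of GRCz12tu, which is not the authors' build, 8 genes, 5 of them protein-coding, stand between *csrnp1a* and *kcnh2a*. Of those 5, 2 were matched and tested. The Golgi stacking gene *gorasp1a* had 54.1 and 46.3 CPM in longfin and 66.6 and 61.9 CPM in wildtype tips, and the K+-Cl- cotransporter gene *slc12a7a* had 71.9 and 61.7 CPM in longfin and 62.1 and 57.7 CPM in wildtype tips. Their log2 fold changes were -0.36 ± 0.11 and 0.16 ± 0.11 (SE). Since heterozygotes carry the *longfin* haplotype around *kcnh2a*, a difference in that haplotype and an effect of the allele elsewhere cannot be told apart for *csrnp1a*. The *crema* gene is also on chromosome 2, where its distance from *kcnh2a* was not analysed here, while NR4A3 and *cremb* are on chromosomes 16 and 24.

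SIK1 (ENSDARG00000058606) stood the other way. It had 423 and 363 CPM in longfin libraries, against 260 and 177 CPM in wildtype libraries, and the longfin libraries were both higher. The log2 fold change was 0.85 ± 0.20 (SE), and the lowest longfin value was 1.39 times the highest wildtype value. Of the reads of the 4 counted Sik kinase genes, SIK1 gave 81.4% and 78.6% in longfin and 67.9% and 62.8% in wildtype libraries.

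**Figure D2:**
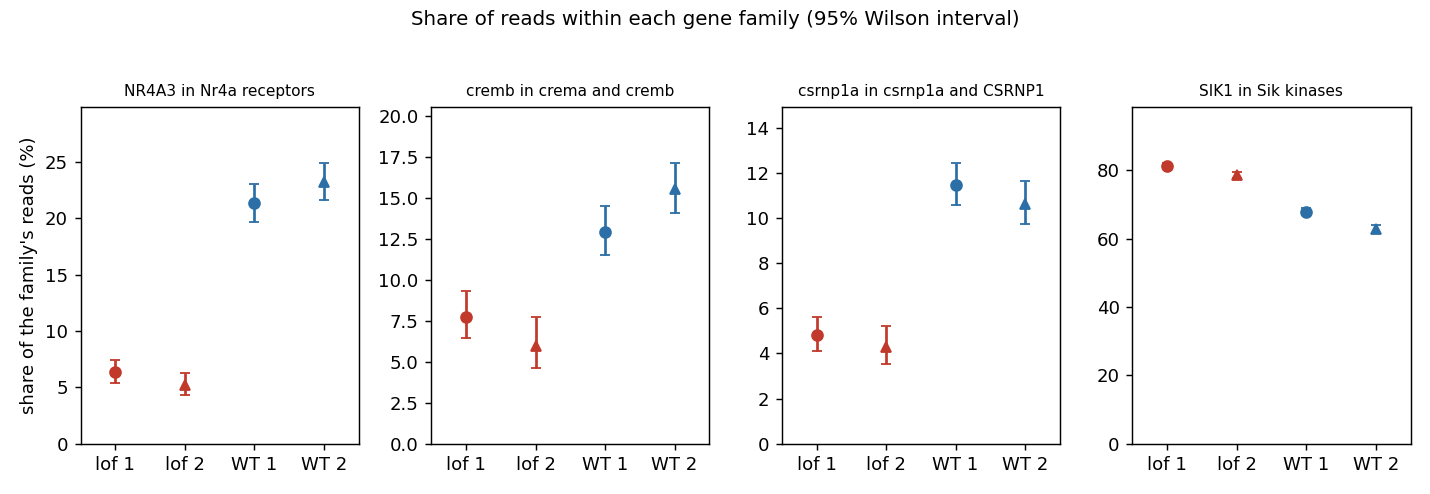
Share of each family's reads (percent, linear axes from 0) that came from NR4A3, *cremb*, *csrnp1a* and SIK1 in each library, lof for longfin heterozygous and WT for wildtype; bars are 95% Wilson intervals. NR4A3 holds 6.35% and 5.23% of the Nr4a reads in longfin and 21.3% and 23.2% in wildtype libraries.

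Across the whole table, edgeR called 74 of 18366 genes (0.403%) with an adjusted p under 0.05, 54 of them lower (0.294%) and 20 higher (0.109%) in longfin tips. Of the 9 genes described here, NR4A3 and *cremb* were among the 54. These genes were chosen from this comparison, so nothing is read from that count. Longfin values lay wholly below the wildtype ones in 5 of the 8 genes tested, and did so in 19.8% of all genes tested. They lay wholly above in SIK1, and in 20.0% of all genes. With longfin heterozygous replicate 1 or replicate 2 left out, the remaining longfin library is assumed to vary like the wildtype pair. In those fits 0 of the 8 genes passed, and 3 genes (0.0159%) and 1 gene (0.00520%) passed in all. The log2 fold changes were then -2.26 and -2.01 for NR4A3 and -2.30 and -1.54 for *cremb*. Without wildtype replicate 1, *csrnp1a*, NR4A3 and SIK1 passed but *cremb* did not, with 0.292% of all genes. Without wildtype replicate 2, *csrnp1a*, CSRNP1, NR4A3 and *cremb* passed, with 0.868% of all genes. DESeq2 called 5 of them, *crema*, *csrnp1a*, NR4A3, *cremb* and SIK1, against 1.58% of all genes. The same 5 passed with scaling by library size only (1.19% of all genes), and *csrnp1a* joined NR4A3 and *cremb* with upper quartile scaling (0.495%) and without the low count filter (0.497%). With limma voom the calls were NR4A3 and *cremb* (0.327%).

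**Figure D3:**
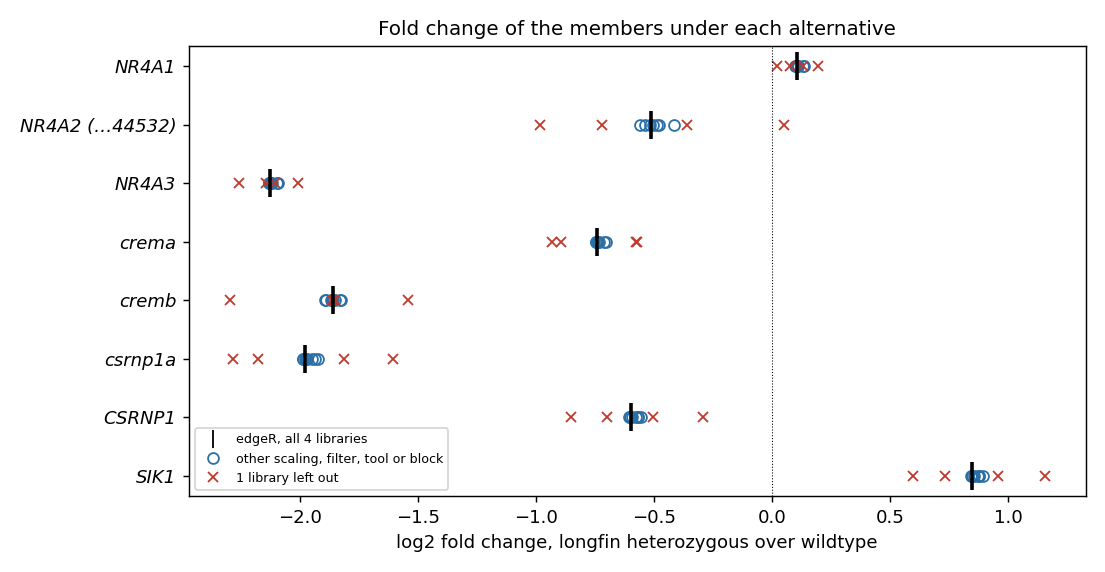
Log2 fold change, longfin heterozygous over wildtype, of the 8 tested genes under each alternative; the black bar is edgeR with all 4 libraries, circles are other scalings, filters, tools or the block, and crosses leave out 1 library. Only NR4A2 (ENSDARG00000044532) crosses 0, at 0.05 without wildtype replicate 1, while NR4A3 spans -2.26 to -2.01.

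**Figure D4:**
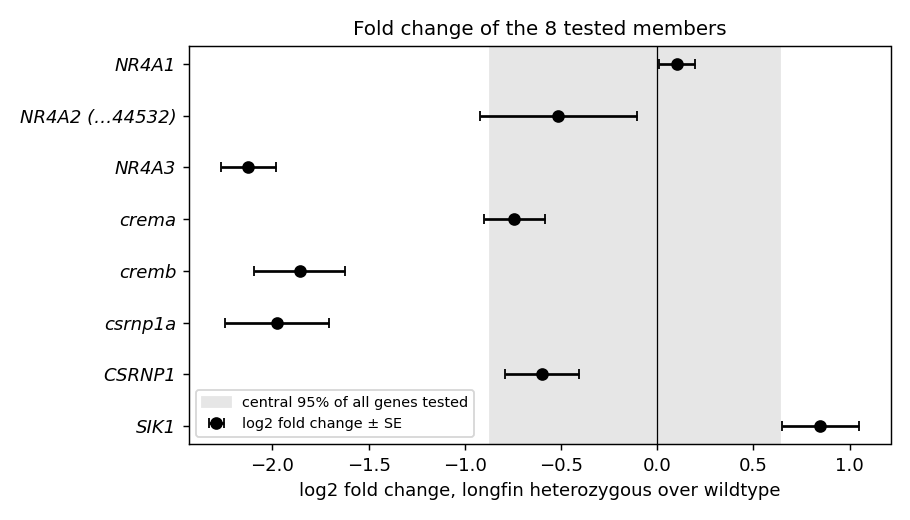
Log2 fold change, longfin heterozygous over wildtype, of the 8 tested genes with its SE; the grey band spans the 2.5th to 97.5th percentile of all 18366 genes tested, -0.87 to 0.64. NR4A3, *cremb* and *csrnp1a* lie below the band at -2.12, -1.86 and -1.98, and SIK1 lies above it at 0.85.

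How the libraries of a genotype differ does not come from the comparison of genotypes. Replicate 1 stood above replicate 2 in both genotypes in 7 of the 8 genes tested, and in 30.7% of all genes tested. NR4A1 was the exception, with 90.9 CPM in longfin replicate 1 and 94.3 CPM in longfin replicate 2. This order was not particular to the genes described here. Of the other cAMP- and activity-induced genes past the threshold, listed further on, *egr1*, *ier2a*, *ier2b*, JUNB (ENSDARG00000074378), NAB1 (ENSDARG00000040700) and *tob1b* had it too. KLF4 and GADD45B (ENSDARG00000013576) did not. Among the 8 genes, the ratio of replicate 1 to replicate 2 was widest for NR4A2 (ENSDARG00000044532) in wildtype, at 2.05, where it rests on 65 and 41 reads. It was closest to 1 for *cremb* and NR4A3 in wildtype, at 1.01 and 1.03, where the counting intervals of the replicates overlapped. The intervals also overlapped in longfin libraries for NR4A1, NR4A2 (ENSDARG00000044532), NR4A3 and *csrnp1a*. In each of these pairs the order of the replicates is within counting error, for NR4A3 in both genotypes. For SIK1 the ratio was 1.17 in longfin and 1.47 in wildtype libraries, and for *crema* 1.28 and 1.25.

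Genes with profiles over the 4 libraries most like those of NR4A3, *cremb* and *csrnp1a* were sought. Likeness was the Euclidean distance between centred log2(CPM + 0.5) values. The search covered 13827 tested genes with a mean of at least 1 CPM and a symbol that is no clone or locus name. Nearest to NR4A3 were PMP22 (ENSDARG00000060457), a myelin and epithelial membrane protein gene, RALGDS (ENSDARG00000042409), a Ral exchange factor gene, and MFSD2A (ENSDARG00000035909), a lysophospholipid transporter gene, at distances of 0.29, 0.35 and 0.36. PMP22 had 30.1 and 28.6 CPM in longfin and 108 and 96.9 CPM in wildtype libraries. Nearest to *cremb* were *cyld2*, the transglutaminase gene *tgm5l* and again RALGDS, at 0.20, 0.27 and 0.28. Nearest to *csrnp1a* were MFSD2A, the mucin gene *muc5.2* and NAB1 (ENSDARG00000040700), a corepressor gene of Egr factors, at 0.27, 0.30 and 0.31. The *muc5.2* levels in longfin libraries, 0.270 and 0.308 CPM, were below the 0.5 CPM added, so its distance depends on that addition. NR4A3 and *cremb* were 0.40 apart, with 5 genes nearer to NR4A3, and NR4A3 and *csrnp1a* 0.48 apart, with 11 nearer. The CSRNP1 and *crema* profiles were 0.26 apart, with 88 genes nearer to *crema*, while NR4A3 and SIK1 were 2.93 apart. All profiles share the same 4 libraries and genotypes, so a small distance is a description.

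Markers of the cell types in the tip were read beside these genes. The summed level of 22 superficial epidermal genes was 12971 and 14931 CPM in longfin and 17459 and 18675 CPM in wildtype libraries, a ratio of 0.772. Of 21 tested, 19 had a log2 fold change below 0, as had 50.3% of all genes tested, and 2 fell past the threshold (0.294% of all genes), *pkp3a* (-1.05) and ANXA1 (ENSDARG00000026726, -0.61). The number past the threshold was 0 with either longfin library left out and 1 with wildtype replicate 1 left out. An unadjusted p under 0.05 was met by 12 lower and 0 higher genes of this list, against 9.47% of all genes tested. The keratin gene *krt95* of this list had no reads. Of 19 blastema genes, none at 0, the summed level was 32151 and 31619 CPM in longfin and 28702 and 28664 CPM in wildtype libraries. The ratio was 1.11. In edgeR 0 passed (0.403% of all genes), and DESeq2 called 1 (1.58%). An unadjusted p under 0.05 (9.47% of all genes tested) was met by 6 higher genes and 1 lower one. Of 9 ionocyte and mucous cell genes, none at 0, the sum was 328 and 314 CPM in longfin and 436 and 361 CPM in wildtype libraries. Of 7 tested, 6 had a log2 fold change below 0, with a median of -0.57. In edgeR 0 of the 7 passed (0.403% of all genes), and DESeq2 called 1 (1.58%). At an unadjusted p under 0.05 (9.47% of all genes), 3 were lower. The mucin gene *muc5.2* stood at -2.93 ± 0.54 (SE), from 6 and 6 reads in longfin and 55 and 39 reads in wildtype libraries. Its place near *csrnp1a* by profile rests on these low counts. The ratios of means for NR4A3, *cremb* and *csrnp1a* were 0.228, 0.273 and 0.251. In bulk tissue, fewer cells of a type and less RNA per cell cannot be told apart, and the part of these cell types in the levels of the Nr4a, Crem, Csrnp1 and Sik1 genes was not tested. Summed levels of 27 macrophage and neutrophil genes, 2 of them at 0 (*lyz* and MFAP4, ENSDARG00000111491), were 1431 and 1405 CPM in longfin and 1638 and 1484 CPM in wildtype libraries. Of 20 tested, 9 had a log2 fold change below 0, with a median of 0.09. Past the threshold, 1 was higher (0.109% of all genes), the chemokine receptor gene CXCR4 (ENSDARG00000057633). It did not pass without either longfin library or without wildtype replicate 1. The second gene with that symbol, ENSDARG00000041959, stood at 0.25 ± 0.12 (SE) and did not pass. The list named *cxcr4b*, and the symbol does not tell which of these genes that is. For basal epidermis, osteoblasts, lymphocytes, endothelium, red blood cells, nerve and glia, and pigment cells, the ratio of summed levels lay between 0.875 and 1.22. Of 55 genes tested in these 7 lists, 0 passed in edgeR (0.403% of all genes), and DESeq2 called 2 (1.58%), both of basal epidermis. At an unadjusted p under 0.05, a level met by 9.47% of all genes, 5 were lower and 0 higher.

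Genes of cAMP synthesis, protein kinase A, CREB and its coactivators were read as a list. Of 28 tested, 0 passed in edgeR, in DESeq2 or in limma voom, against 0.403%, 1.58% and 0.327% of all genes tested. With shares this low, a count of 0 in 28 says little. An unadjusted p under 0.05 was met by 1 higher and 2 lower genes, and by 9.47% of all genes tested. The list's median log2 fold change was -0.04, against -0.0015 over all genes tested. The most abundant were the regulatory subunit genes of protein kinase A, PRKAR1A (ENSDARG00000076128), with 220 and 186 CPM in longfin and 248 and 200 CPM in wildtype libraries, and PRKAR2A, with a log2 fold change of -0.13. Of 12 tested cAMP phosphodiesterase genes, whose products break cAMP down, 0 passed in edgeR (0.403% of all genes). At an unadjusted p under 0.05 (9.47% of all genes), 2 were lower, and the median was -0.18. PDE4B (ENSDARG00000032868) and PDE3B stood at -0.19 and 0.15. DESeq2 called 1 (1.58% of all genes), *pde4ca*, chosen for mention by its value. It had 21.4 and 18.8 CPM in longfin and 32.7 and 30.6 CPM in wildtype libraries.

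Tested partners of Sik1 numbered 18, including the other Sik kinases, their activator Lkb1 and the class IIa histone deacetylases and Mef2 factors downstream. In edgeR 0 of them passed, against 0.403% of all genes tested, and the median was -0.04. The scaffold genes *cab39l1* and CAB39L stood at -0.05 and -0.18. An unadjusted p under 0.05 was met by 1 of the 18 and by 9.47% of all genes tested. DESeq2 also called that gene, against 1.58% of all genes. The gene was SIK2 (ENSDARG00000062315), named after its value was seen. It had 28.8 and 25.4 CPM in longfin and 51.4 and 41.2 CPM in wildtype libraries, a log2 fold change of -0.77 ± 0.14 (SE), opposite in sign to that of SIK1. The second SIK2 gene, ENSDARG00000079618, and SIK3 stood at -0.08 and 0.07. The 6 retinoid X receptor genes, whose products pair with Nr4a1 and Nr4a2 in mammals, were read with the Csrnp paralogues CSRNP2 and CSRNP3. Of these 8, 0 passed in edgeR, DESeq2 or limma voom, against 0.403%, 1.58% and 0.327% of all genes tested. An unadjusted p under 0.05 was met by 0 of the 8 and by 9.47% of all genes. RXRB and *rxrbb* had log2 fold changes of 0.06 and -0.21.

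Genes listed as other cAMP- or activity-induced genes moved in both directions. Whether each gene of the list is such a target in the fin was not examined. Of 45 tested, 5 rose and 3 fell past the adjusted threshold in edgeR, against 0.109% higher and 0.294% lower over all genes, and the median was -0.10. The list holds genes already known to differ in these libraries, so its counts are not independent evidence. The early response genes *egr1*, *ier2a*, *ier2b*, JUNB (ENSDARG00000074378) and GADD45B (ENSDARG00000013576) rose, with log2 fold changes of 2.35, 1.72, 1.75, 1.27 and 1.12. KLF4, NAB1 (ENSDARG00000040700) and *tob1b*, a transcription factor, a corepressor and an antiproliferative gene, fell, with -2.69, -1.84 and -0.85. The second GADD45B gene, ENSDARG00000027744, went the other way, at -0.38 ± 0.14 (SE). The second JUNB gene, ENSDARG00000104773, stood at 2.00 ± 0.31 (SE) and the second NAB1 gene, ENSDARG00000042940, at -0.52 ± 0.49 (SE). None of these second genes passed in edgeR. The early response gene *egr1* had 363 and 314 CPM in longfin and 78.8 and 54.1 CPM in wildtype libraries, while NR4A3 stood at 6.30 and 5.30 CPM in longfin and 25.7 and 25.0 CPM in wildtype libraries. An unadjusted p under 0.05 was met by 12 higher and 13 lower genes of the 45, against 9.47% of all genes in either direction. DESeq2 called 15, against 1.58% of all genes. Without longfin heterozygous replicate 1 or replicate 2 the count of 8 was 1.

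**Figure D5:**
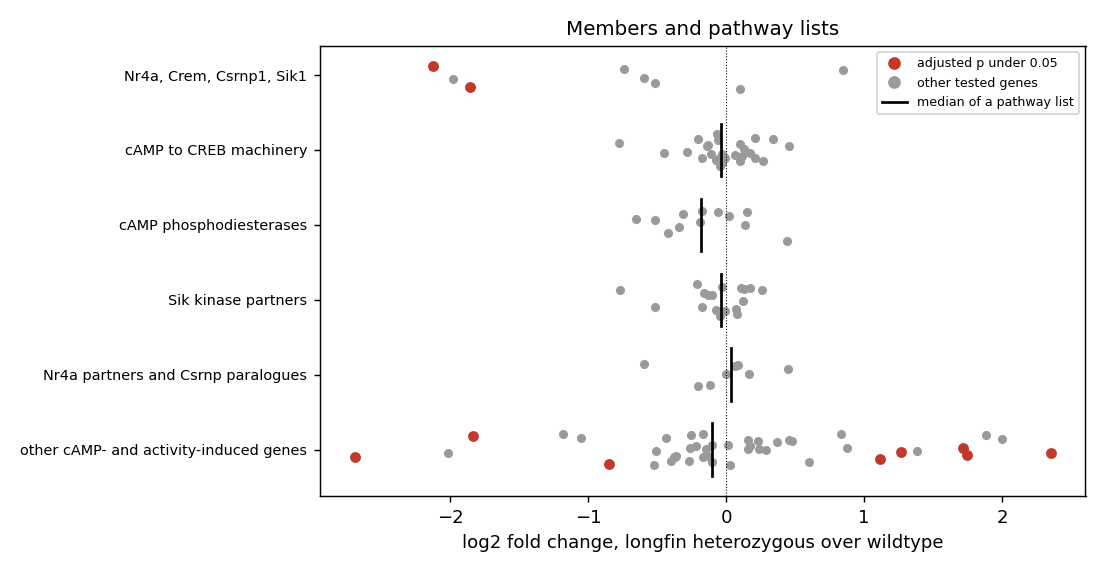
Log2 fold change, longfin heterozygous over wildtype, of the 8 genes described here and of each tested gene in the pathway lists; red points passed an adjusted p of 0.05 in edgeR and black lines mark the medians of the pathway lists. The other cAMP- and activity-induced genes spread from KLF4 at -2.69 to *egr1* at 2.35. No gene of the 4 other pathway lists passed, against 0.403% of all genes tested.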

How the data were processed

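Per the labels' protocols, RNA was taken up in TRIzol and made into stranded mRNA libraries (Kapa). TopHat2, HTSeq and the GRCz11 (danRer11) build are named in the submitters' processing notes. The sources used here do not give versions, annotation release or strand setting, so antisense overlaps are uncertain. The deposited values are raw read counts per Ensembl gene, made by the authors and not normalized. The unnamed total and the HTSeq classes were left out; reads in no gene were 7.78 to 9.31%, and reads not uniquely aligned 28.7 to 41.9%, of each library.

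Symbols were read from a gene-name table of Ensembl IDs, in any case of letters or by the human symbol. The main test, without a replicate term, was edgeR 4.0.16 in R 4.3.3 (filterByExpr with minimum count 10 and total 15, TMM, glmQLFit with legacy off and robust on, glmQLFTest, two-sided), with Benjamini-Hochberg adjustment over 18366 genes and a threshold of 0.05. SE is the size of the log2 fold change over the root of its F statistic. Alternatives were other scalings, filters, DESeq2 1.42.0, limma voom 3.58.1, a replicate block and each library left out. The fit was also run on simulated counts, with the same spread for every gene and independent libraries. These data differ in both, so that run checked the code only. Promoter motifs and protein identity were not analysed here.

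The genes and lists were chosen with earlier results of these data known. The plan was to name from a pathway list up to 4 genes past the threshold by size of change, otherwise the 2 of highest CPM. From the other cAMP- and activity-induced genes, all those past the threshold were named instead. For NR4A3, *cremb* and *csrnp1a*, 3 neighbours by profile were named. Others are said to be named after their values were seen, share a symbol with a named gene or are members of a small count. Counts of the 2 libraries of a genotype differed beyond sampling noise, at 19.0 (longfin) and 27.6 (wildtype) chi-square units per degree of freedom.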

Additional observations from a re-analysis of the deposited data

How the results depend on the processing

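In all 12 alternatives, NR4A3, *crema*, *cremb*, *csrnp1a* and CSRNP1 stayed lower and SIK1 higher in longfin tips. The genotypes did not overlap for these genes, so leaving out 1 library could hardly reverse a sign. The remaining alternatives reuse the same libraries. The unchanged signs are therefore a description and no test of the differences. NR4A1, whose genotypes overlapped, stayed near 0, with log2 fold changes of 0.02 to 0.19. NR4A3 ranged from -2.26 to -2.01, *crema* from -0.93 to -0.57, *cremb* from -2.30 to -1.54, *csrnp1a* from -2.28 to -1.61, CSRNP1 from -0.85 to -0.29 and SIK1 from 0.60 to 1.15 on the log2 scale. NR4A2 (ENSDARG00000044532) fell below a mean count of 50 and had a log2 fold change of 0.05 without wildtype replicate 1. Of 95 such values, 88 moved by less than the SD between replicates. With 2 libraries per genotype, leaving 1 out can hardly move a value much further than that SD. The share is thus largely set by the yardstick and is no measure of stability. For counts, 20 genes were higher and 54 lower in the main test, 64 and 155 scaled by library size alone, 32 and 98 unfiltered and 77 and 214 with DESeq2. With a library left out, they ranged from 0 to 25 higher and 1 to 138 lower, and the described genes past the threshold from 0 to 1 higher and 0 to 4 lower, against 0 and 2. With library size alone or DESeq2, 1 was higher and 4 lower.

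The replicate number was also used as a block. Same-numbered libraries correlated at 0.279 in their deviations from the genotype mean over 18366 genes, but no label ties them together. With the replicate block 245 genes were higher and 549 lower, and of the described genes 1 was higher and 5 lower (*crema*, *cremb*, *csrnp1a*, CSRNP1, NR4A3), against 4.32% of all genes. List counts that moved by more than 1.5 times with the block were 22 of the other cAMP- and activity-induced genes, 11 superficial epidermal, 7 blastema, 3 basal epidermal, 2 ionocyte and mucous, 2 macrophage and neutrophil, 1 endothelial, 1 phosphodiesterase and 1 Sik partner gene.

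List counts that moved by more than 1.5 times with DESeq2, which called 1.58% of all genes, are given with the number tested. They were 15 of 45 other cAMP- and activity-induced genes, 6 of 21 superficial epidermal genes and 2 of 14 basal epidermal genes. The count was 1 each for phosphodiesterases (12 tested), Sik partners (18), blastema (19), and ionocytes and mucous cells (7). With library size alone (1.19% of all genes) such counts were 1 each for Sik partners, basal epidermis, and ionocytes and mucous cells. Unfiltered (0.497% of all genes), the count was 1 for basal epidermis. The share of all genes called with each library left out is given in the Results. With a library left out, the ranges were 1 to 10 for other cAMP- and activity-induced genes, 0 to 3 for superficial epidermis, 0 to 1 for macrophages and neutrophils, 0 to 1 for Sik partners and 0 to 2 for ionocytes and mucous cells. The cause was not tested. The lowest read number among the 8 described genes tested was 30, for NR4A2 (ENSDARG00000044532) in longfin replicate 2, with a 95% Poisson interval of 1.04 to 2.20 CPM.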

Other observations

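Both period clock genes with the symbol PER1, members of the list of other cAMP- and activity-induced genes picked for this paragraph once their values were known, differed far more between replicates than between genotypes. PER1 (ENSDARG00000056885) had 32.6 CPM in longfin replicate 1 and 4.01 CPM in longfin replicate 2, and 36.6 CPM in wildtype replicate 1 and 4.72 CPM in wildtype replicate 2, ratios of 8.13 and 7.76. PER1 (ENSDARG00000012499) had ratios of 2.04 in longfin and 2.52 in wildtype libraries. The corresponding ratios of SIK1 were 1.17 and 1.47. No label gives the time of day at which tissue was taken.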
